A study of Drosophila melanogaster with 8 samples.

Results

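The genes described here encode the synaptic vesicle cycle of Drosophila neurons: vesicle proteins, the fusion machinery, the active zone, endocytosis and recycling, SNARE disassembly, calcium sensors of release, and the synthesis, loading and reception of the inhibitory transmitter GABA. The list held 32 genes. A gene was represented by the probe set that carried its symbol alone and had the highest mean over all arrays, and 26 of the 32 genes had such a probe set, among 11982 genes named in this way. The genes stnA and stnB shared a probe set that carried both symbols, whose values are given separately. Syt1, Syx1A, comt and Nsf2 were not analysed here. Of the 26 genes, 22 were tested, because at least 2 of the 8 arrays had a log2 signal above 4, and brp, Frq2, VGAT and Rdl fell below this limit.

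Synaptic vesicles are filled with transmitter, docked at the active zone and fused with the plasma membrane when calcium enters through channels there. Fusion is driven by SNARE proteins on the vesicle and on the plasma membrane, which are afterwards pulled apart by NSF and its cofactor, while vesicle membrane is retrieved by clathrin, adaptors and dynamin. In fly embryos neurons are born and extend axons before they assemble synapses, and synaptic transmission begins late in embryogenesis.

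RNA was taken from whole dechorionated embryos with forced expression of dimm in all neurons and from embryos of the driver line. The gene encodes DIMMED, a transcription factor of peptidergic neuroendocrine cells. The dimm embryos had the genotype w;UAS-dimm2A3/+;elav-GAL4/+ and carried a myc-tagged dimm transgene (line 2A3) with the elav-GAL4 driver, which is active in neurons. The control embryos came from the parental line w;;elav-GAL4, so both genotypes carried the driver and the groups also differed in driver dose and in the paternal chromosomes. Each genotype was sampled at stage 16 (28 to 32 h after egg laying at 18 °C) and at stage 14 (22 to 26 h per the sample labels, with 24 h as the lower age in the series text), and parents were reared at 25 °C. Each of the 4 groups had 2 Affymetrix Drosophila Genome 2.0 arrays. By one reading of the series text each RNA sample was put on a pair of arrays, so the spread behind the p-values may be technical. Precision is limited throughout by the number of arrays.

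Each value is a log2 signal, made with GCRMA, and can be compared between arrays for a gene but not between genes. Between 7574 and 7651 probe sets lay above 4 on each array. The lowest value of the table was 2.19 on the 4 arrays of stage 16 and 2.18 on the 4 arrays of stage 14, and a signal there is background. No label or header says whether the stages were normalised together, so stage and any separate processing cannot be told apart. The dimm signal was 5.51 and 8.26 in stage 16 dimm embryos, against 2.53 and 2.68 in stage 16 controls. At stage 14 it was 7.59 and 7.66 in dimm embryos, against 2.86 and 2.80 in controls. The transgene was thus higher on every dimm array, with the stage 16 dimm arrays far apart. The pan-neuronal gene elav lay between 11.51 and 12.23 on the 8 arrays, and another neuronal marker, para, sat at the lowest value on all of them.

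Both replicate 1 arrays of stage 16 had low signals at the 5′ end of control transcripts. The 5′ probe set of the actin control was at 5.64 in replicate 1 and 9.47 in replicate 2 of the stage 16 dimm embryos, at 4.72 and 10.04 in those replicates of the stage 16 controls, and between 10.49 and 11.32 at stage 14. Among the 22 tested synaptic vesicle genes, replicate 2 of stage 16 was higher than replicate 1 in 16 genes of dimm embryos (median difference 0.39) and in 17 genes of control embryos (median 0.51), against 48.9% and 50% of all tested probe sets. The part of this in the results was not tested. Some values are also given without both of these arrays. That leaves 1 array in each stage 16 group, which has to be assumed to vary like the others, and the spread then comes from the stage 14 arrays alone, which differed less. In that fit 6575 of all tested probe sets passed for the stage change in dimm embryos and 6422 in controls, against 5245 and 5023 with all arrays, so its values are given with no p.

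The main difference in these genes was between stages. The comparison of stage 16 with stage 14 asked which synaptic vesicle genes were at different levels late in embryogenesis, in each genotype separately. In dimm embryos 12 of the 22 tested genes were higher at stage 16 and 3 were lower (limma, adjusted p under 0.05), where 20.7% of the 8258 tested probe sets were called higher and 42.8% lower. In control embryos 13 genes were higher and 2 lower, against backgrounds of 21.8% and 39%. In both genotypes 12 genes were higher and 2 lower, where 19.8% and 37.7% of tested probe sets were. The median change was 1.17 in dimm and 1.29 in control embryos, against -0.44 and -0.38 over all tested probe sets. The control median was 0.68 without replicate 2 of the stage 16 controls and 1.61 without replicate 1. The arrays of the stages did not overlap in 14 genes that were higher and 4 that were lower at stage 16 in dimm embryos (27.9% and 57.7% of tested probe sets), and in 16 and 4 genes in controls (29.4% and 55.1%). The counts are descriptive, since 6 of the 22 genes (nSyb, Rim, Rbp, cac, Frq1 and Gad1) entered the test only through their stage 16 signal and had to differ. Of the other 16 genes, 6 were higher and 3 lower in dimm embryos, and 7 were higher and 2 lower in controls, with medians of 0.31 and 0.53. The share among all probe sets selected in that way was not counted, so these counts are descriptive too. With each array centred on the median of the tested probe sets, which moved the median of all changes to -0.13 and -0.16, the split was 14 higher and 1 lower in dimm embryos and 15 higher and 0 lower in controls. In that setting 4747 of all tested probe sets were called in dimm embryos and 4648 in controls. Their directions were not counted, so this split has no background share and is descriptive. In whole embryos, fewer cells of a type and less RNA per cell cannot be told apart.

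**Figure D1:**
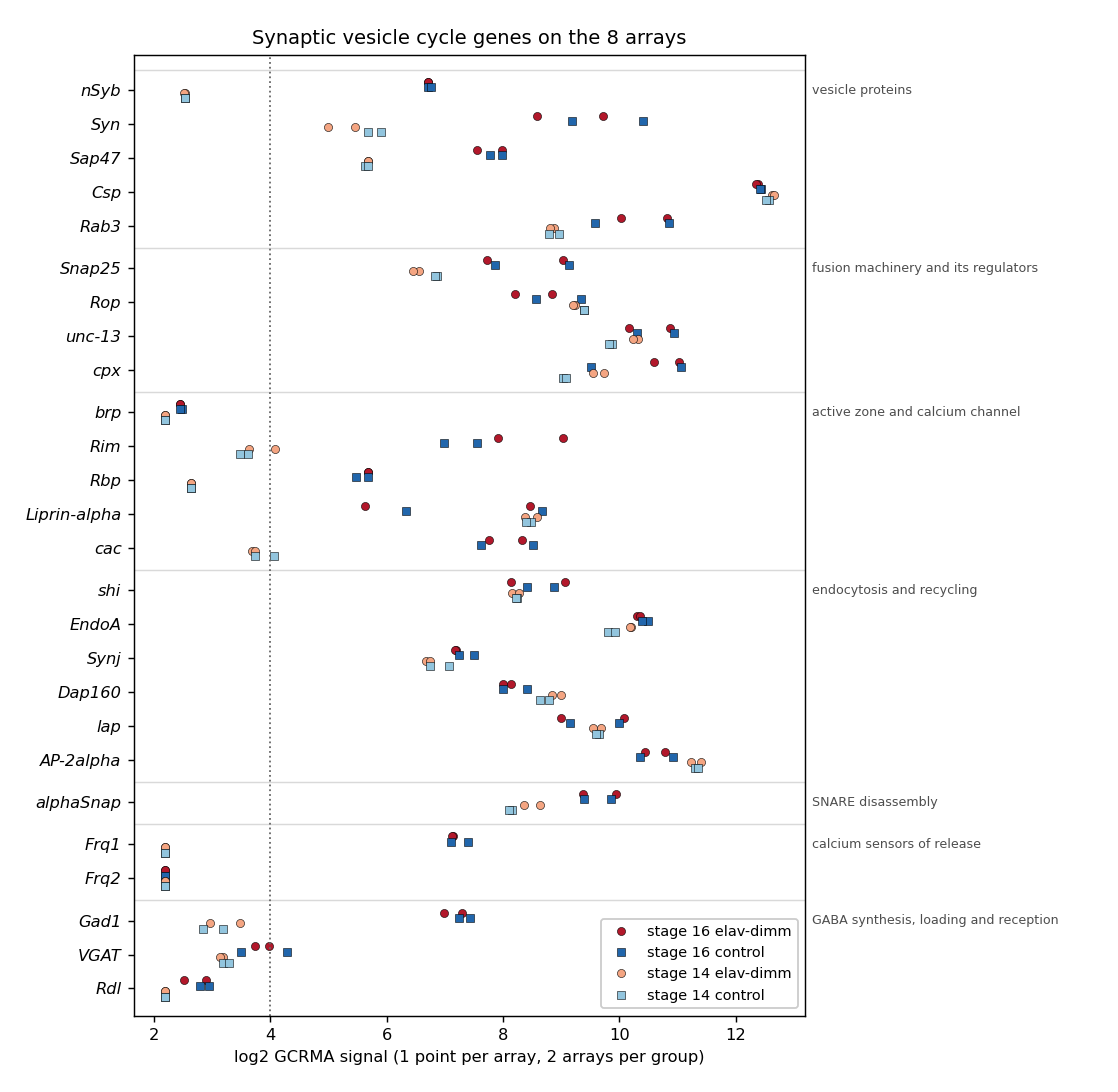
Log2 GCRMA signal of the 26 synaptic vesicle cycle genes on the 8 arrays, 1 point per array, with red and orange circles for dimm embryos and blue squares for controls at stages 16 and 14, and a dotted line at the limit of 4. The points of nSyb, Rbp and Frq1 lie above 5 on every stage 16 array and below 3 on every stage 14 array, while brp and Frq2 stay below 3 on all arrays.

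**Figure D2:**
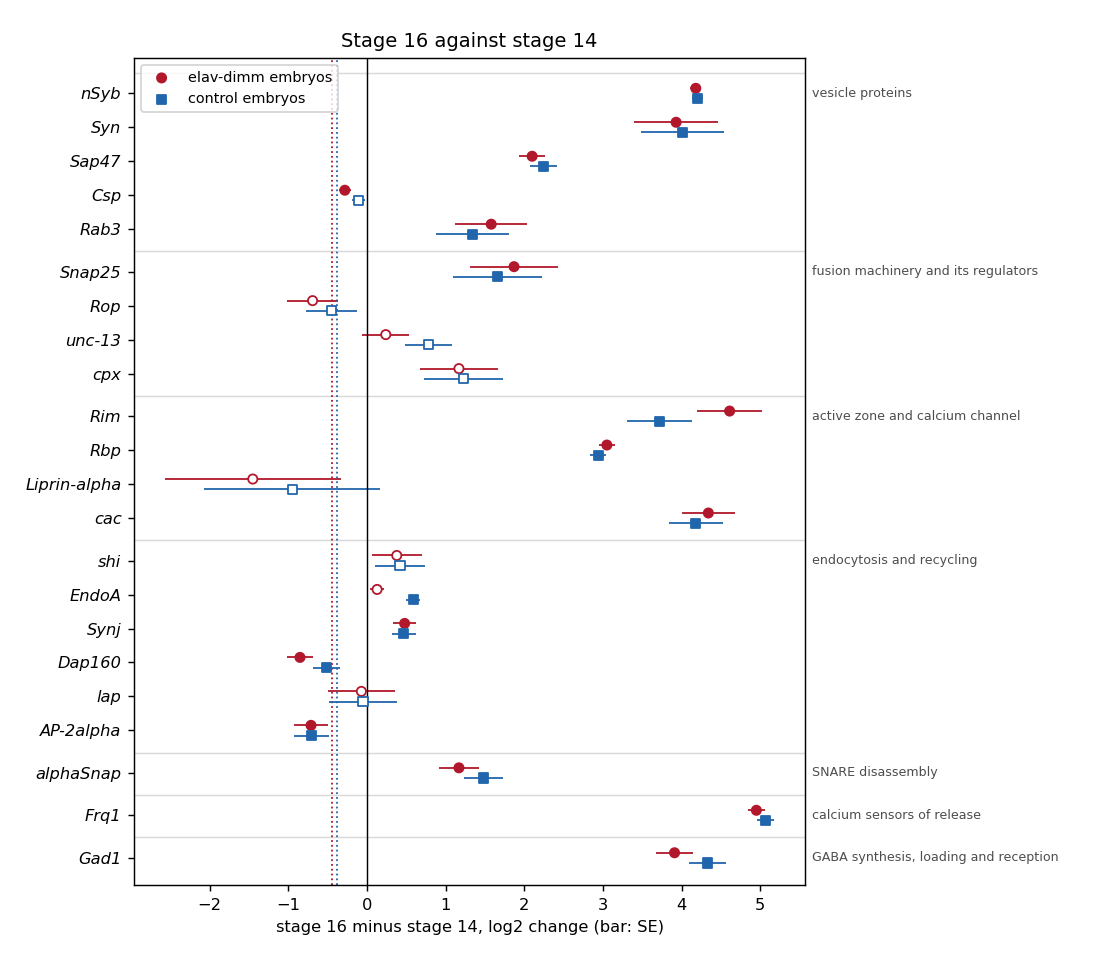
Stage 16 minus stage 14 log2 change of the 22 tested genes in dimm embryos (red circles) and controls (blue squares), with the standard error as a bar, filled where the adjusted p was under 0.05; dotted lines mark the medians of all tested probe sets, -0.44 in dimm embryos and -0.38 in controls. Frq1, Rim, cac, nSyb, Gad1 and Syn lie farthest to the right in both genotypes, and Liprin-alpha has the widest bars.

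Among the vesicle proteins, nSyb, Syn, Sap47 and Rab3 were higher at stage 16 in both genotypes. The signal of nSyb, the neuronal synaptobrevin that serves as the vesicle SNARE, was 6.71 and 6.71 in dimm embryos at stage 16, against 2.53 and 2.52 at stage 14. In controls it was 6.71 and 6.76 at stage 16, against 2.53 and 2.53 at stage 14. The arrays of a stage were almost identical and the stages were far apart: nSyb rose by 4.18 ± 0.07 in dimm embryos (SE, log2, 2 arrays against 2, adjusted p = 2.46e-06 in limma) and by 4.20 ± 0.07 in controls (adjusted p = 2.77e-06). Because the stage 14 signal lies near the background, the size is uncertain, and with all signals below 4 raised to 4 the rises were 2.71 and 2.73. The range of nSyb over the 4 arrays was 0.0509 at stage 16 and 0.0113 at stage 14, and a range under 0.1 was seen in 7% of tested probe sets at stage 16 and in 20.2% at stage 14.

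Syn encodes Synapsin, a phosphoprotein that holds vesicles in reserve. Its signal was 8.58 and 9.72 in dimm embryos at stage 16, against 5.45 and 4.99 at stage 14. In controls it was 9.18 and 10.41 at stage 16, against 5.67 and 5.91 at stage 14. All stage 16 arrays were above all stage 14 arrays, and Syn rose by 3.93 ± 0.53 in dimm embryos and by 4.01 ± 0.53 in controls, 15.2-fold and 16.1-fold (limma, adjusted p = 0.00159 and 0.00158). Sap47, a vesicle-associated protein of synapses, was at 7.99 and 7.55 in dimm embryos at stage 16, against 5.68 and 5.67 at stage 14. It rose 4.28-fold there and 4.73-fold in controls, with a log2 change of 2.24 ± 0.17 in controls. Its second probe set rose by 1.09 in dimm embryos (limma, adjusted p = 0.0174) and differed by 0.73 in controls (adjusted p = 0.0664). With replicate number as a block across both stages, the limma adjusted p in controls was 0.0302. The probe sets of Sap47 thus gave different sizes.

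Rab3, the small GTPase of synaptic vesicles, was at 10.03 and 10.82 in dimm embryos at stage 16, against 8.87 and 8.81 at stage 14. In controls Rab3 was at 9.59 and 10.85 at stage 16, against 8.80 and 8.96 at stage 14. The stages did not overlap, and Rab3 rose by 1.58 ± 0.46 in dimm embryos (limma, adjusted p = 0.0275) and by 1.34 ± 0.46 in controls (adjusted p = 0.0489), with replicate 2 the higher array at stage 16 in each genotype. The Rab3 differences were 1.98 and 1.97 without both replicate 1 arrays of stage 16. These calls were weak: that in dimm embryos was lost in 5 and that in controls in 7 of the 8 fits that left out 1 array. Csp, the cysteine string protein that acts as a co-chaperone on vesicles, went the other way with a small size, at 12.38 and 12.35 in dimm embryos at stage 16, against 12.62 and 12.67 at stage 14. Csp fell by 0.28 on the log2 scale in dimm embryos (limma, adjusted p = 0.0228), a smaller fall than the median of all tested probe sets, and differed by -0.11 ± 0.08 in controls (adjusted p = 0.241). With each array centred on its median the Csp change in dimm embryos was 0.03.

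Of the fusion machinery, only Snap25 among the 4 tested genes was called, as higher at stage 16 in both genotypes. Snap25, a SNARE of the plasma membrane, was at 7.72 and 9.04 in dimm embryos at stage 16, against 6.56 and 6.46 at stage 14. In controls it was at 7.87 and 9.14 at stage 16, against 6.86 and 6.83 at stage 14. The stages did not overlap, and Snap25 rose 3.65-fold in dimm embryos and 3.16-fold in controls (limma, adjusted p = 0.0308 and 0.0466), but the call was lost in 5 of the 8 fits that left out 1 array, in each genotype. Complexin, encoded by cpx, binds assembled SNAREs and holds fusion until calcium arrives. Its signal was 10.60 and 11.03 in dimm embryos at stage 16, against 9.74 and 9.55 at stage 14, and 9.52 and 11.06 in controls at stage 16, against 9.03 and 9.09 at stage 14. All stage 16 arrays of cpx were thus above the stage 14 arrays of their genotype, and the changes of 1.17 ± 0.50 and 1.23 ± 0.50 did not pass (limma, adjusted p = 0.087 and 0.078). The second probe set of cpx differed by 1.42 and 1.34.

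The remaining fusion genes showed no call. Rop, the fly Sec1/Munc18 protein that binds syntaxin, was at 8.21 and 8.85 in dimm embryos at stage 16, against 9.24 and 9.20 at stage 14, a difference of -0.69 ± 0.32 (limma, adjusted p = 0.108). In controls Rop was at 8.56 and 9.34 at stage 16, against 9.39 and 9.40 at stage 14, a difference of -0.45 ± 0.32. Without both replicate 1 arrays of stage 16 the Rop differences were -0.37 and -0.05. The vesicle priming factor gene unc-13 lay between 9.82 and 10.94 on the 8 arrays and differed by 0.24 in dimm embryos and 0.78 in controls (limma, adjusted p = 0.51 and 0.0688). Without both replicate 1 arrays of stage 16, cpx differed by 1.39 in dimm embryos and 2.00 in controls, and unc-13 by 0.59 and 1.10. In the same setting Snap25 differed by 2.53 and 2.30.

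At the active zone, Rim, Rbp and cac were higher at stage 16 in both genotypes, and all 3 had stage 14 signals near or below 4. Rim encodes a scaffold that gathers calcium channels and vesicles at release sites. Its signal was 7.91 and 9.03 in dimm embryos at stage 16, against 3.63 and 4.08 at stage 14, and 6.99 and 7.55 in controls at stage 16, against 3.47 and 3.62 at stage 14. Rim rose by 4.61 ± 0.41 in dimm embryos (limma, adjusted p = 0.000291) and by 3.72 ± 0.41 in controls (adjusted p = 0.000729). With signals below 4 raised to 4 the rises were 4.43 and 3.27. The other 2 probe sets of Rim stayed at or below 2.69 on all arrays.

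The RIM-binding protein gene Rbp was at 5.68 and 5.68 in dimm embryos at stage 16, against 2.63 and 2.63 at stage 14. In controls it was at 5.47 and 5.68 at stage 16, against 2.63 and 2.63 at stage 14, so the stages were far apart in both genotypes. Rbp rose by 3.05 ± 0.10 and 2.94 ± 0.10 (limma, adjusted p = 7.77e-06 and 8.78e-06), and by 1.68 and 1.57 with signals below 4 raised to 4. Its stage 14 signals lay near background with a range of 0.000465, against 0.213 at stage 16. The SE uses a spread shared by all groups, so the SEs and p-values of Rbp may overstate the precision. The gene cac encodes the pore subunit of the presynaptic voltage-gated calcium channel. It was at 7.76 and 8.33 in dimm embryos at stage 16, against 3.68 and 3.73 at stage 14, and at 7.63 and 8.51 in controls at stage 16, against 4.06 and 3.73 at stage 14. The changes of cac were 4.34 ± 0.34 and 4.18 ± 0.34 (limma, adjusted p = 0.000178 and 0.000216), or 4.05 and 4.04 with signals below 4 raised to 4. The second probe sets of Rbp and cac lay at the lowest value of each stage.

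Bruchpilot, encoded by brp, is the main scaffold of the fly active zone. The signal of brp was at most 2.47 at stage 16 and 2.18 on every stage 14 array in its brightest probe set, and its other 3 probe sets did not exceed 2.21, so brp was not measured above background. Liprin-alpha, a scaffold that recruits active zone material, divided by replicate at stage 16 in place of stage. It was at 5.62 in replicate 1 and 8.46 in replicate 2 of the stage 16 dimm embryos, at 6.33 and 8.67 in those replicates of the stage 16 controls, and between 8.38 and 8.59 at stage 14. The low arrays were those with low 5′ signals. Liprin-alpha differed by -1.45 ± 1.12 in dimm embryos and -0.95 ± 1.12 in controls (limma, adjusted p = 0.296 and 0.486), and by -0.03 and 0.22 without both replicate 1 arrays of stage 16.

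The 6 tested genes of endocytosis and recycling had small stage differences. Changes past the threshold ranged from -0.85 to 0.59, and the median was 0.03 in dimm embryos and 0.18 in controls. EndoA, Endophilin A, which bends membrane at the neck of endocytic pits, was at 10.31 and 10.35 in dimm embryos at stage 16, against 10.21 and 10.18 at stage 14. In controls EndoA was at 10.50 and 10.39 at stage 16, against 9.81 and 9.92 at stage 14. EndoA rose by 0.59 ± 0.09 in controls, 1.5-fold (limma, adjusted p = 0.00238), and differed by 0.13 ± 0.09 in dimm embryos (adjusted p = 0.231). With each array centred on its median EndoA passed in dimm embryos too, at 0.44 (adjusted p = 0.0118).

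Synaptojanin, the phosphoinositide phosphatase encoded by Synj that strips coats from vesicles, was at 7.20 and 7.18 in dimm embryos at stage 16, against 6.68 and 6.74 at stage 14. Synj rose by 0.48 ± 0.15 there and by 0.47 ± 0.15 in controls (limma, adjusted p = 0.0324 and 0.0371), but these calls were lost in 4 and in 6 of the 8 fits that left out 1 array. Dap160, the fly intersectin, which links endocytic proteins, averaged 8.07 in dimm embryos at stage 16 and did not exceed 8.14, against 8.85 and 8.99 at stage 14, so the stages were well apart. Dap160 fell by 0.85 on the log2 scale in dimm embryos (limma, adjusted p = 0.00658), where the call remained in every alternative tried. In controls Dap160 fell by 0.51 (adjusted p = 0.0408), and that call was lost in 7 of the 8 fits without 1 array and with centred arrays (-0.30, adjusted p = 0.157).

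AP-2alpha, a subunit of the clathrin adaptor at the plasma membrane, was at 10.44 and 10.78 in dimm embryos at stage 16, against 11.24 and 11.40 at stage 14. AP-2alpha fell by 0.71 on the log2 scale in dimm embryos and by 0.70 in controls (limma, adjusted p = 0.0344 and 0.0379), but with centred arrays the values were -0.40 and -0.48 and did not pass (adjusted p = 0.151 and 0.0993). Each of these AP-2alpha calls was also lost in 5 of the 8 fits that left out 1 array. The dynamin gene shi was at 8.13 and 9.06 in dimm embryos at stage 16, against 8.15 and 8.28 at stage 14, and its arrays overlapped. Its differences of 0.38 and 0.42 did not pass, and neither did those of its other 2 probe sets, which lay between -0.01 and 0.15. For lap, which encodes the clathrin adaptor AP180, the differences were -0.07 and -0.05 (limma, adjusted p = 0.896 and 0.923), each with an SE of 0.43. Without both replicate 1 arrays of stage 16, shi differed by 0.84 in dimm embryos and 0.65 in controls, and the lap difference turned round, to 0.47 in dimm embryos and 0.37 in controls. The second probe set of lap differed by -0.47 in dimm embryos and by -0.79 in controls (limma, adjusted p = 0.0917). With replicate number as a block across both stages, the limma adjusted p in controls was 0.0372. Neither the size nor the direction of the lap difference was thus stable.

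The Stoned proteins, endocytic factors that act on synaptotagmin, come from the stnA and stnB open reading frames of a shared transcript. Their shared probe set was at 8.55 and 8.68 in dimm embryos at stage 16, against 5.97 and 5.97 at stage 14. In controls it was at 9.27 and 9.54 at stage 16, against 6.70 and 6.27 at stage 14. The stages did not overlap, and the stnA and stnB probe set rose by 2.64 in dimm embryos and by 2.92 in controls (limma, adjusted p = 9.33e-05 and 6.45e-05).

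Alpha-SNAP, the NSF cofactor encoded by alphaSnap, was the measured gene of SNARE disassembly. It was at 9.95 and 9.37 in dimm embryos at stage 16, against 8.36 and 8.63 at stage 14, and at 9.85 and 9.39 in controls at stage 16, against 8.16 and 8.11 at stage 14. The stages did not overlap, and alphaSnap rose 2.24-fold in dimm embryos and 2.79-fold in controls (limma, adjusted p = 0.00954 and 0.00398). Without replicate 1 of the stage 14 dimm embryos its rise in dimm embryos was 1.03 (adjusted p = 0.06). Unlike Syn, Rab3, Snap25 and cpx, alphaSnap was higher in replicate 1 than in replicate 2 of both stage 16 groups.

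Frequenins are neuronal calcium sensors that modulate release, and flies carry the neighbouring genes Frq1 and Frq2. The signal of Frq1 was 7.14 and 7.13 in dimm embryos at stage 16, against the lowest value on both arrays at stage 14. In controls Frq1 was at 7.39 and 7.11 at stage 16, again against the lowest value on both stage 14 arrays. Frq1 rose by 4.95 ± 0.11 and 5.07 ± 0.11 (limma, adjusted p = 3.79e-06 and 3.74e-06), and by 3.13 and 3.25 with signals below 4 raised to 4. All stage 14 arrays of Frq1 shared the lowest value and added no spread, so these SEs and p-values may overstate the precision. Frq2 sat at the lowest value on all 8 arrays and was not measured above background.

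The GABA genes differed in how well they were measured. Gad1, glutamic acid decarboxylase, makes GABA and marks GABAergic neurons. Its signal was 6.98 and 7.29 in dimm embryos at stage 16, against 3.48 and 2.96 at stage 14, and 7.24 and 7.44 in controls at stage 16, against 2.84 and 3.18 at stage 14. Gad1 rose by 3.91 ± 0.23 in dimm embryos and 4.33 ± 0.23 in controls (limma, adjusted p = 5.76e-05 and 4.15e-05), or by 3.14 and 3.34 with signals below 4 raised to 4. The vesicular GABA transporter gene VGAT exceeded 4 on 1 array, at 4.28 in replicate 2 of the stage 16 controls. The other stage 16 signals of VGAT lay between 3.50 and 3.97, and those of stage 14 between 3.13 and 3.29. The GABA receptor subunit gene Rdl lay between 2.52 and 2.94 at stage 16, against 2.18 to 2.19 at stage 14. Neither VGAT nor Rdl was tested.

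Other genes of the same pathways also differed between the stages, in lists drawn up with earlier results of these data known. Of 18 tested release and active zone genes outside the main list, 9 were higher and 1 lower at stage 16 in dimm embryos, and 8 were higher and 2 lower in controls, with medians of 0.39 and 0.46. The background shares for all tested probe sets were 20.7% higher and 42.8% lower in dimm embryos and 21.8% and 39% in controls. Rab3-GEF, an activator of Rab3, rose by 4.43 in dimm embryos and by 4.77 in controls, or by 2.64 and 3.04 with signals below 4 raised to 4. Nrx-1, which encodes the synaptic adhesion protein Neurexin, rose by 3.56 and 3.88, or by 3.05 and 3.40 with that floor. Both entered the test only through their stage 16 signal, as did Lcch3 and Gat, the tested genes of the GABA comparison list. The gene stj, which encodes an accessory subunit of calcium channels, rose 5.08-fold and 4.6-fold. The Snap25 paralogue Snap24 fell by 2.91 in controls (limma, adjusted p = 0.0467), with 4.52 in replicate 1 and 6.88 in replicate 2 at stage 16, against 8.63 and 8.59 at stage 14. The Snap24 differences were -1.59 in dimm embryos and -1.73 in controls without both replicate 1 arrays of stage 16. Rab3GAP1, which encodes a subunit of a Rab3 regulator, fell by 1.86 in dimm embryos and fell by 1.96 in controls, to signals below 4 at stage 16, with changes of -0.98 and -0.91 under the floor at 4. Of 11 tested endocytosis genes, 1 was higher and 2 were lower in dimm embryos, and 1 was higher and 1 lower in controls. The higher gene was Amph, which encodes Amphiphysin, at 3.84-fold and 3.51-fold, and the uncoating factor gene aux fell in both genotypes, by 0.54 and 0.43. The clathrin light chain gene Clc fell by 0.28 in dimm embryos. Of 2 tested GABA genes, the receptor subunit gene Lcch3 rose by 3.35 in each genotype, with 5.64 on all stage 16 arrays, against 2.29 on all stage 14 arrays, and by 1.64 with the floor at 4.

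Markers of neurons and of other tissues also differed between the stages. Of 6 tested pan-neuronal markers (7 listed), 4 were higher at stage 16 and 1 was lower in each genotype, against the same background shares. Rbp9, an RNA-binding protein of neurons, rose 5.35-fold in dimm embryos and 2.39-fold in controls, and nrv3, a neuronal sodium pump subunit, rose 4.12-fold and 4.05-fold. The other higher markers were Appl and futsch. The signal of elav fell by 0.60 and 0.65. The log2 of the summed signal of the 7 pan-neuronal markers was 13.26 to 13.78 in dimm embryos at stage 16, against 13.77 to 13.82 at stage 14, and 13.27 to 13.81 in controls at stage 16, against 13.69 to 13.74 at stage 14. Between 75% and 94.6% of that sum came from fne and elav, so it says little of the other markers.

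For the other tissues too, the background shares were 20.7% higher and 42.8% lower in dimm embryos and 21.8% and 39% in controls. Of 7 tested glial markers (8 listed), 1 was higher and 4 were lower in each genotype. The higher gene was alrm, by 2.65 in dimm embryos and 3.02 in controls, and the lower ones were Gs2, wrapper, repo and moody. The summed glial signal was 13.30 to 13.63 in dimm embryos at stage 16, against 13.96 to 14.07 at stage 14, and 13.46 to 13.91 in controls at stage 16, against 14.11 to 14.12 at stage 14. All 4 tested muscle markers (up, Tm2, Mlc1 and Mlc2, of 7 listed) rose in both genotypes, with a summed signal of 14.97 to 15.27 in dimm embryos at stage 16, against 12.59 to 12.85 at stage 14, and 15.05 to 15.44 in controls at stage 16, against 12.82 to 12.93 at stage 14. Muscle, like neurons, thus had transcripts that were higher at stage 16. Of 4 tested epidermis markers (7 listed) 3 rose in dimm embryos (kkv, knk and serp) and 2 in controls (kkv and knk), and the summed signal was 13.86 to 14.47 in dimm embryos at stage 16, against 13.26 to 13.29 at stage 14, and 13.75 to 14.32 in controls at stage 16, against 13.39 to 13.47 at stage 14. Of 2 tested haemocyte markers (5 listed) 1 rose in each genotype, Pxn, with a summed signal of 11.37 to 12.06 in dimm embryos at stage 16, against 12.23 to 12.36 at stage 14, and 11.31 to 12.06 in controls at stage 16, against 12.21 to 12.26 at stage 14. The epidermis markers Ddc, ple and resilin and the haemocyte markers Hml, He and NimC1 never exceeded 4. The part of these tissues in the changes of the synaptic vesicle genes was not tested.

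**Figure D3:**
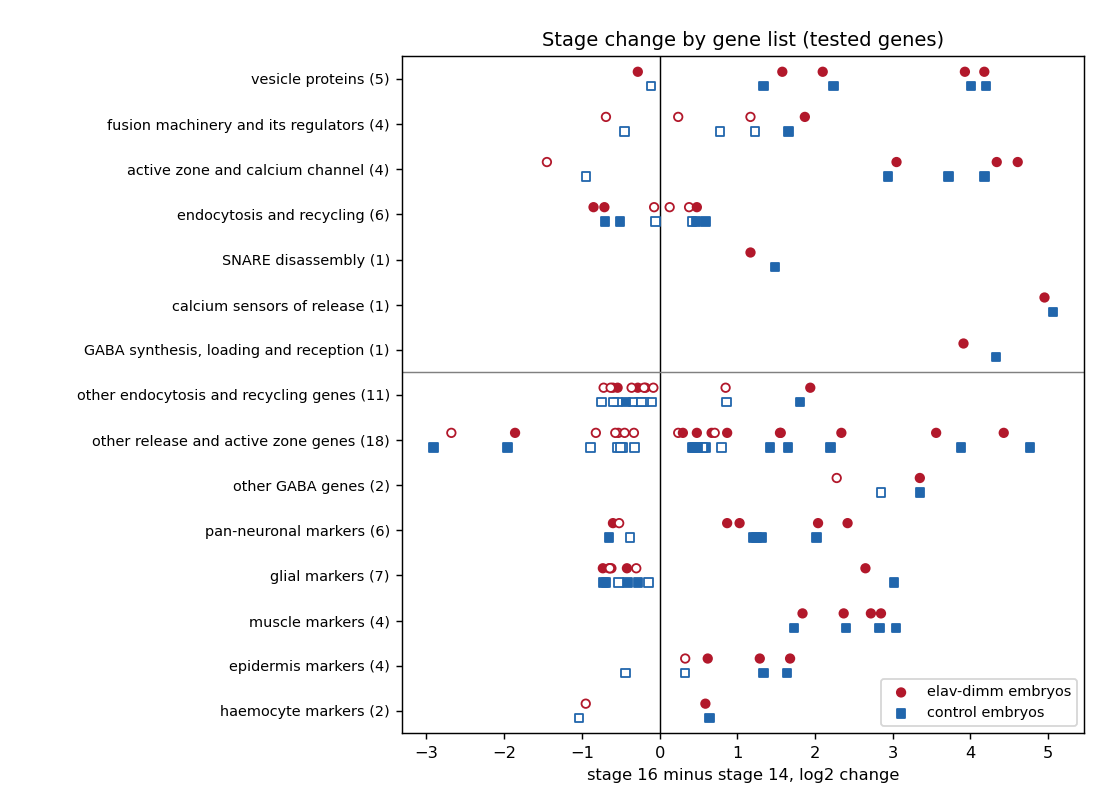
Stage 16 minus stage 14 log2 change of each tested gene, by group of synaptic vesicle genes (above the line) and by comparison list (below it), with red circles for dimm embryos and blue squares for controls, filled where the adjusted p was under 0.05. The 6 tested endocytosis and recycling genes lie between -0.85 and 0.59, while 3 of the 4 active zone and calcium channel genes lie above 2.9.

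The comparison of dimm embryos with controls asked whether switching on DIMMED in all neurons altered these genes. None of the 22 tested genes passed, averaged over the stages, where 1.5% of all tested probe sets did. At stage 16 and at stage 14 the count was also 0 of 22, against backgrounds of 0.363% and 0.339%. At an unadjusted p under 0.05 there was 1 gene of the 22 in each of these contrasts, Rim on average and at stage 16 and EndoA at stage 14, against 994, 658 and 661 of the 8258 tested probe sets. The median average effect was -0.02 over the 22 genes and 0.00 over all tested probe sets, with a range from -0.61 for Syn to 0.76 for Rim. The precision differed by gene: for 17 of the 22 the 95% interval of the average effect lay within 1 log2 unit of 0 on either side. The 5 exceptions were Syn, Snap25, cpx, Rim and Liprin-alpha, whose intervals reached past 1 log2 unit. The 17 include nSyb, Rbp and Frq1, near background on all stage 14 arrays, where no genotype difference or spread could show. Their average intervals were narrow for that reason and say little of the dimm effect. The 17 also include cac and Gad1, with stage 14 signals near or below 4. In simulated data of the same group sizes, with noise independent between arrays, the average contrast found 61% of differences of 1 log2 unit and 93% of those of 2.

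**Figure D4:**
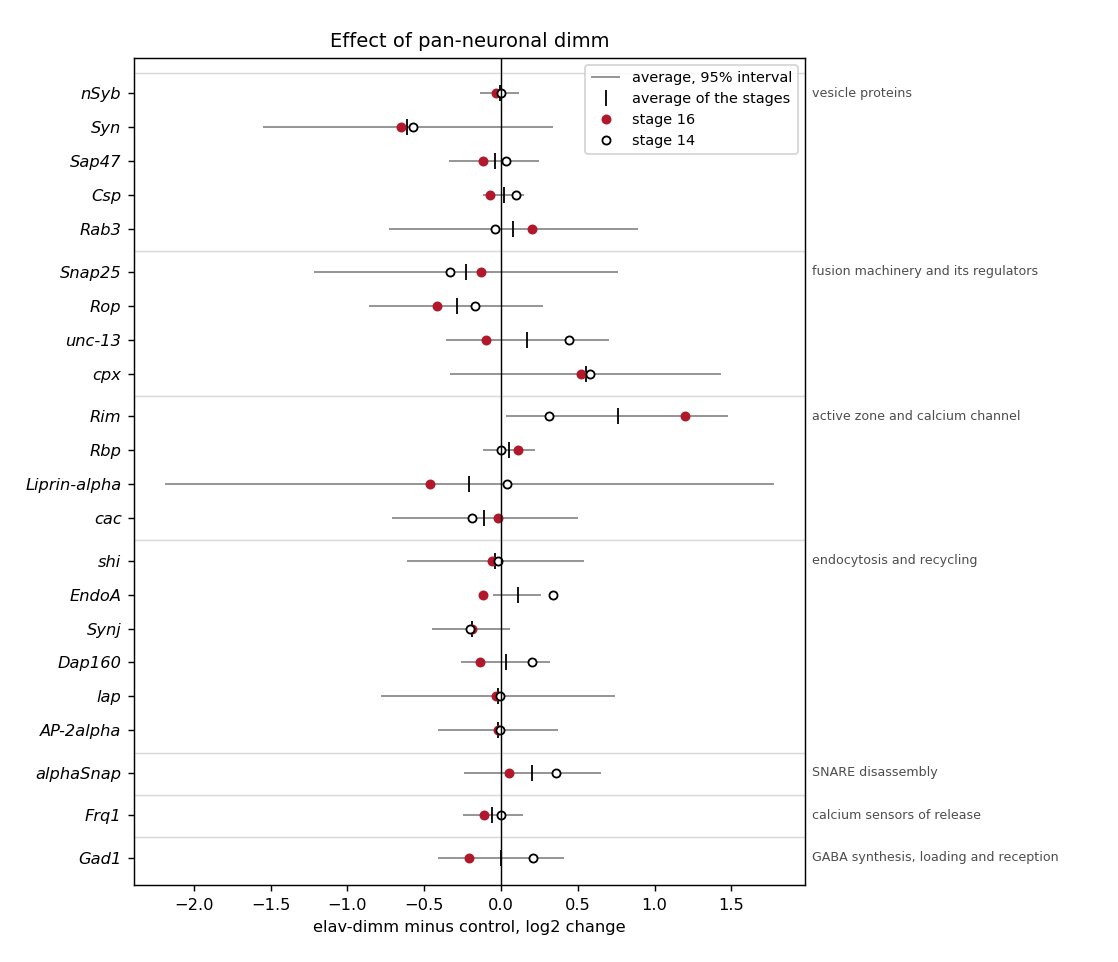
Log2 difference of dimm embryos over controls for the 22 tested genes, with filled circles for stage 16, open circles for stage 14, a tick for the average of the stages and a line for its 95% interval. Most ticks lie close to 0, with Rim at 0.76 and Syn at -0.61 at the ends of the range.

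Rim had the highest average effect and was the gene with higher signals on all dimm arrays at both stages, a separation shown by 6.78% of tested probe sets. Its signals were 7.91 and 9.03 in dimm embryos at stage 16, against 6.99 and 7.55 in controls, and 3.63 and 4.08 in dimm embryos at stage 14, against 3.47 and 3.62 in controls. The arrays of the genotypes did not overlap at either stage. At stage 14, however, the Rim signals were near or below 4, and the separation there was 3.63 in a dimm array against 3.62 in a control array. Rim differed by 0.76 ± 0.29 on average (SE, 4 arrays against 4, 95% interval 0.03 to 1.48, limma, adjusted p = 0.393), by 1.20 ± 0.41 at stage 16 (adjusted p = 0.491) and by 0.31 ± 0.41 at stage 14. A paired fit took same-numbered arrays of a stage as a block. In it the average effect of Rim had a limma adjusted p of 0.0454. Without both replicate 1 arrays of stage 16 the average effect of Rim was 0.90. In the paired fit 4.44% of all tested probe sets were called higher and 3.29% lower.

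Rop was the other gene whose call depended on the pairing. It was at 8.21 and 8.85 in dimm embryos at stage 16, against 8.56 and 9.34 in controls, and at 9.24 and 9.20 in dimm embryos at stage 14, against 9.39 and 9.40 in controls. Each dimm array of Rop was below the control array of the same number and stage, while the ranges overlapped at stage 16. Rop differed by -0.29 ± 0.22 on average (limma, adjusted p = 0.788, and 0.0484 when paired). Without both replicate 1 arrays of stage 16 the Rop effect was -0.33 on average and -0.49 at stage 16.

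The probe set shared by stnA and stnB was lower on all dimm arrays at both stages, at 8.55 and 8.68 in dimm embryos at stage 16, against 9.27 and 9.54 in controls, and at 5.97 and 5.97 in dimm embryos at stage 14, against 6.70 and 6.27 in controls. Such a separation was seen in 5.26% of tested probe sets. The difference of the stnA and stnB probe set was -0.65 on average (limma, adjusted p = 0.0915, and 0.0355 when paired), -0.80 at stage 16 and -0.51 at stage 14. Without both replicate 1 arrays of stage 16 it was -0.69.

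Synj was the tested gene with lower signals on all dimm arrays at both stages. It was at 7.20 and 7.18 in dimm embryos at stage 16, against 7.24 and 7.50 in controls, and at 6.68 and 6.74 in dimm embryos at stage 14, against 6.74 and 7.07 in controls. The gap was small, and Synj differed by -0.19 ± 0.10 (limma, adjusted p = 0.599). Syn was at 8.58 and 9.72 in dimm embryos at stage 16, against 9.18 and 10.41 in controls, and at 5.45 and 4.99 in dimm embryos at stage 14, against 5.67 and 5.91 in controls. Its arrays overlapped at stage 16 and were apart at stage 14, but in all 4 same-numbered pairs Syn was lower in dimm embryos, with differences of -0.60 and -0.69 at stage 16 and of -0.22 and -0.92 at stage 14. Syn differed by -0.61 ± 0.38 on average (95% interval -1.55 to 0.34, limma, adjusted p = 0.684, and 0.0763 when paired). Snap25 was also lower in all 4 pairs, with an average effect of -0.23 ± 0.40 (limma, adjusted p = 0.99, and 0.0591 when paired). In all, 4 of the 22 genes (Syn, Snap25, Rop and Synj) were lower and 1 (Rim) was higher in every pair. The share of all tested probe sets that did so was not counted, and the pairing at stage 14 is assumed, so these counts are descriptive. For cpx the difference was 0.55 ± 0.35, with an interval from -0.33 to 1.43.

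At stage 14 alone 7 of the 22 genes had all dimm arrays above the controls and 5 had all below, where 33% and 19.3% of tested probe sets did. At stage 16 alone 1 gene, Rim, was above and 3, Csp, EndoA and Synj, were below, where 9.69% and 12.4% of tested probe sets were. For nSyb, Rbp and Frq1, which lay near background at stage 14 in both genotypes, a genotype difference could show only at stage 16. There it was -0.03 ± 0.07 for nSyb, 0.11 ± 0.10 for Rbp and -0.11 ± 0.11 for Frq1. These SEs also draw on the stage 14 arrays near background and may be too small. For Rim, cac and Gad1, with stage 14 signals near or below 4, the stage 16 differences were 1.20 ± 0.41, -0.02 ± 0.34 and -0.21 ± 0.23.

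Of the 54 tested genes of the comparison lists, 1 passed for the average dimm effect, where 1.5% of all tested probe sets did. It was the glial marker repo, which encodes a transcription factor of glia. Its signal was 9.53 and 9.26 in dimm embryos at stage 16, against 10.28 and 10.31 in controls, and 9.96 and 10.13 in dimm embryos at stage 14, against 10.70 and 10.71 in controls. All dimm arrays were lower, and repo fell by 0.78 on the log2 scale (SE 0.08, limma, adjusted p = 0.0256). Glial markers did not share a direction: of the 7 tested, 4 were lower and 3 higher in dimm embryos on average. Gs2 differed by 0.36, with all dimm arrays above the controls at both stages (limma, adjusted p = 0.217, and 0.0489 when paired). The part of glial RNA in the dimm effects on the synaptic vesicle genes was not tested.

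The dependence of the dimm effect on stage asked whether the difference between genotypes changed with age. None of the 22 genes passed, where 0.0121% of tested probe sets did. At an unadjusted p under 0.05 the count was 1 of 22, EndoA, against 249 of the 8258 tested probe sets.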

How the data were processed

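Total RNA from whole embryos was measured on 8 Affymetrix arrays in 4 groups of 2. The authors deposited log2 values, and the submitters' processing notes name R 2.12.1, GCRMA 2.22.0 and limma (no version given). GCRMA corrects background by probe sequence, normalises quantiles and summarises each probe set. GCRMA can place dim probe sets at a shared lowest value, so changes from there have an uncertain size.

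Of the 18952 probe sets in the table, 183 controls were left out. The platform annotation gives 1 gene for 13647 of the remaining 18769 probe sets, more than 1 for 402 and no gene for 4720. The probe set with the highest mean among those naming a gene alone represented it. All 26 genes with such a probe set matched the RefSeq gene table, used for names and neighbours. The genes and comparison lists were chosen with earlier results of these data known.

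Probe sets above 4 on at least 2 arrays (8258) were tested with limma 3.58.1 in R 4.3.3: 4 group means, default empirical Bayes moderation (4 residual and 1.45 prior degrees of freedom), and Benjamini-Hochberg adjustment over all 8258 with a threshold of 0.05. Adjusted p-values in the text are from this fit unless another is named. Contrasts compared dimm with control embryos at each stage, over both and between the stages, and stage 16 with stage 14 within a genotype. Errors are standard errors of the fit and intervals cover 95%. Every gene of the list is named. Of other lists, up to 4 genes past the threshold per direction and contrast are named by size, besides elav, para, fne and dimm.

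Replicate numbers recur in every group. At stage 16, deviations from the group mean correlated across probe sets between same-numbered arrays of the genotypes (0.906). At stage 14 that value was 0.155, hardly above the -0.0241 to 0.134 between arrays of different stages. The numbers were taken as pairs within a stage, which at stage 14 is an assumption. Paired p-values of the average and stage 14 effects depend on it. For the dimm effect and its dependence on stage, the fit with these pairs as a block (2 residual degrees of freedom) was an alternative. For the stage change the block was instead the replicate number, taken as shared by both stages, which is a further assumption. Other alternatives were centring or quantile normalisation of the arrays, raising signals below 4 to 4, and no filter or a limit of 6. Further ones were the mean of a gene's probe sets, array weights, and the stages or genotypes fitted alone. For the stage change these pairs were also taken as a random block. Arrays were left out as well, each in turn and both stage 16 replicate 1 arrays together. In the latter fit 1 array stands for each stage 16 group and the spread comes from stage 14.

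On simulated data of 8258 probe sets with 100 changed by each size, 48% of stage differences of 1 log2 unit and 87% of those of 2 were found for dimm embryos, and 51% and 85% for controls. Far fewer probe sets changed there than the 5245 and 5023 called between the stages in the data. The adjustment was thus stricter in the simulation, and these rates do not describe the stage contrasts.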

Additional observations from a re-analysis of the deposited data

Results flagged for a closer look

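EndoA, which encodes Endophilin A, and Csp, which encodes the cysteine string protein, had genotype differences of opposite direction at the stages with no overlap of arrays. EndoA was at 10.31 and 10.35 in dimm embryos at stage 16, against 10.50 and 10.39 in controls, a difference of -0.12. At stage 14 it was at 10.21 and 10.18 in dimm embryos, against 9.81 and 9.92 in controls, a difference of 0.34. The effect of dimm on EndoA at stage 16 minus that at stage 14 was -0.46 (limma, adjusted p = 1, unadjusted p = 0.0119). Csp was at 12.38 and 12.35 in dimm embryos at stage 16, against 12.44 and 12.42 in controls, and at 12.62 and 12.67 in dimm embryos at stage 14, against 12.57 and 12.52 in controls. The dimm effect on Csp was -0.07 at stage 16 and 0.10 at stage 14, a difference of -0.16 (limma, adjusted p = 1, unadjusted p = 0.181). Opposite directions without overlap were seen in 141 of the 8258 tested probe sets, 1.71%.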

How the results depend on the processing

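The rises of nSyb, Syn, Sap47, Rim, Rbp, cac, Frq1 and Gad1 at stage 16 passed in both genotypes under every alternative that could be fitted (17 for Rbp, which the limit of 6 and the mean of its probe sets took out of the test, and 19 for the others), as did the fall of Dap160 in dimm embryos and the rises of EndoA and alphaSnap in controls. Of these genes, nSyb, Rim, Rbp, cac, Frq1 and Gad1 entered the test only through their stage 16 signal and had to differ. Their passing under every alternative is thus no check. Leaving out 1 array gave 9 to 17 genes past the threshold for the stage change in dimm embryos and 10 to 15 in controls, against 15 in each with all arrays. The lowest count, 9, came without replicate 1 of the stage 14 dimm embryos, when Csp, Rab3, Snap25, Synj, AP-2alpha and alphaSnap no longer passed. Across the fits without 1 array, the calls of Rab3, Snap25, Synj and AP-2alpha in both genotypes, Csp in dimm embryos and Dap160 in controls were each lost in at least 4 of 8, with adjusted p-values up to 0.177. Without the stage 16 replicate 2 array of their genotype, Rab3 differed by 1.19 in dimm embryos and by 0.71 in controls, and Snap25 by 1.21 and 1.03. Fitting controls alone left 10 calls. The direction of the Csp change in dimm embryos turned when arrays were centred (0.03). Without a filter on dim signals, brp, Frq2 and Rdl also passed between stages, at signals below 3. In that setting 14766 of 18769 probe sets were called in dimm embryos and 14601 in controls. Frq2 sat at the lowest value of each stage, which was 2.1861 at stage 16 and 2.1816 at stage 14, so its call was fixed by that offset.

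For the dimm effect, leaving out 1 array gave 0 genes in every contrast. The average effect gave 1 gene (Rop) without both replicate 1 arrays of stage 16 and 2 genes (Rim and Rop) in the paired fit with a replicate block. The stage 16 effect gave 1 gene (Rop) without both replicate 1 arrays, and the stage 14 effect gave 1 gene (EndoA) with array weights. With array weights the stage 14 effect gave 734 calls over all tested probe sets, against 28 as reported. For the stage change, replicate number as a block across both stages left 15 calls in each genotype. For the dimm effect, the paired fit changed no call of the 22 genes other than those of Rim and Rop. Pairs within a stage as a random block gave 13 stage calls in dimm embryos and 14 in controls. Over all tested probe sets the average effect gave 639 calls with the block and 816 without both replicate 1 arrays, against 124 as reported. The calls without those arrays are no replicate check, since that fit keeps 1 array per stage 16 group and takes the spread from the stage 14 arrays, and its stage 16 effect gave 406 calls, against 30 as reported. Of 1820 values under alternatives for genes and comparisons not past the threshold, 175 had the opposite sign to the reported value, and 2 of these passed, the stage differences of lap without both replicate 1 arrays of stage 16 (0.47 and 0.37). The causes of these shifts were not tested. Simulated arrays had independent noise of equal size, while replicate arrays here differed with an SD of 0.699 in dimm embryos and 0.798 in controls at stage 16, and of 0.336 and 0.165 at stage 14.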

Other observations

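Besides repo, 4 genes of the comparison lists had an adjusted p under 0.1 for the average dimm effect, all lower in dimm embryos. These were chosen after their values were seen. The share of all tested probe sets under 0.1 was not counted, so the number of such genes is descriptive. Syngr, which encodes the vesicle protein Synaptogyrin, was at 8.94 and 9.18 in dimm embryos at stage 16, against 9.50 and 9.80 in controls, and at 7.53 and 7.47 in dimm embryos at stage 14, against 8.24 and 8.21 in controls. All dimm arrays were lower, and Syngr differed by -0.65 (limma, adjusted p = 0.0503, and 0.0134 in the paired fit). Srpk79D, a kinase gene whose loss in flies leaves Bruchpilot clumped in axons, differed by -0.45 (limma, adjusted p = 0.0845, and 0.0277 when paired). The neuronal RNA-binding protein gene Rbp9 differed by -0.97 (limma, adjusted p = 0.0946, and 0.027 when paired), while elav differed by 0.02. The glial marker moody, which encodes a receptor of the blood-brain barrier, differed by -0.33 (limma, adjusted p = 0.0845, and 0.0398 when paired). Another glial marker, Gs2, went the other way, by 0.36 (limma, adjusted p = 0.217, and 0.0489 when paired). Of the 54 tested genes of these lists, 9 passed in the paired fit. In the paired fit 4.44% of all tested probe sets were called higher and 3.29% lower.

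The GABA transporter gene Gat divided the stage 16 arrays by replicate number. It was at 2.49 in replicate 1 and 6.47 in replicate 2 of the dimm embryos, at 2.61 and 7.48 in those replicates of the controls, and at 2.20 on every stage 14 array. The low stage 16 arrays were those with low 5′ signals, as for Liprin-alpha and Snap24.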
